A study of Arabidopsis thaliana with 18 samples.

Results

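Translational efficiency, the level of ribosome footprints of a gene relative to the level of its RNA, was compared between seedlings of the Arabidopsis mutant ceres-1 and the wild type Col-0. The measure used here is the log2 fold change of footprints over Col-0 less that of RNA, taken for each gene that has both. It could be formed for 22933 of the 27628 genes of the authors' deposited table, and 12120 of these also have an adjusted p-value for efficiency there. A gene is called here when that adjusted p is below 0.05. In ceres-1, efficiency was called at 13 genes, 8 higher and 5 lower. Among the 5 were the oleate desaturase gene FAD2, the vacuolar glucose transporter gene VGT1 and the chloroplast photosystem genes PSAJ and PSBM. The ethylene signalling gene EBF1 and 4 genes encoded in the mitochondrion were among the 8.

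Ribosome profiling and RNA-seq each had 3 libraries of Col-0, 3 of ceres-1 and 3 of ceres-2, which makes 18. The 12 libraries of Col-0 and ceres-1 are the ones described here, and ceres-2, a further CERES mutant in the Col-0 background, is set beside them. All plants were 9-day-old seedlings grown under control conditions and collected 5 h into the light period (Zeitgeber time 5), and no genotype carried another treatment. Whole seedlings were profiled, the labels do not say what kind of mutation either allele is, and nothing says whether the 3 libraries of a group came from separate plantings. The adjusted p-values may therefore measure only technical spread.

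The authors' deposited table holds comparisons of groups of libraries, not values per library. No SD, interval or depth can be given for a gene, and which single library is high or low cannot be seen. Levels are not given either, so the tissue could not be checked against marker genes. Fold changes between scaled libraries are relative to the typical gene, and a shift of efficiency shared by most genes would not be seen. In bulk seedlings, fewer cells of a type and less RNA per cell cannot be told apart.

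Translation of most nuclear mRNAs starts when eIF4E, bound to the cap at the 5' end, joins the scaffold eIF4G and the helicase eIF4A. CERES is a plant protein with leucine-rich repeats that binds eIF4E and its isoform and takes part in translation. Chloroplasts and mitochondria have their own ribosomes, resembling those of bacteria, and translate mRNAs that carry no cap. When more of an mRNA is in ribosomes at the same RNA level, its footprint change exceeds its RNA change, and the difference used here lies above 0. The same difference also lies above 0 when RNA falls and footprints stay level.

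The CERES gene itself (AT4G23840) was far lower in ceres-1 in both kinds of library. In the authors' deposited table its RNA was at -4.43 (adjusted p = 5.62e-08 from DESeq2) and its footprints at -3.77 on the log2 scale. It has no efficiency adjusted p, and the difference came to 0.66, with -0.24 for ceres-2.

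Across the 12120 genes tested, the differences were centred on 0, with a median of 1.11e-04 and quartiles of -0.19 and 0.19. Differences of at least 1 on the log2 scale occurred at 54 genes upward and 25 downward. At the smaller size of 0.58, which is 1.5-fold, there were 416 upward (3.43% of genes tested) and 318 downward (2.62%). RNA and footprint changes in ceres-1 were nearly unrelated across genes (Pearson r = 0.016 over the 12120 genes, which share their libraries). The 10813 genes with both fold changes but no efficiency adjusted p were far more spread, with 24.7% of them at or past 1 in either direction against 0.652% of those tested. These were left out of the counts below.

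**Figure D1:**
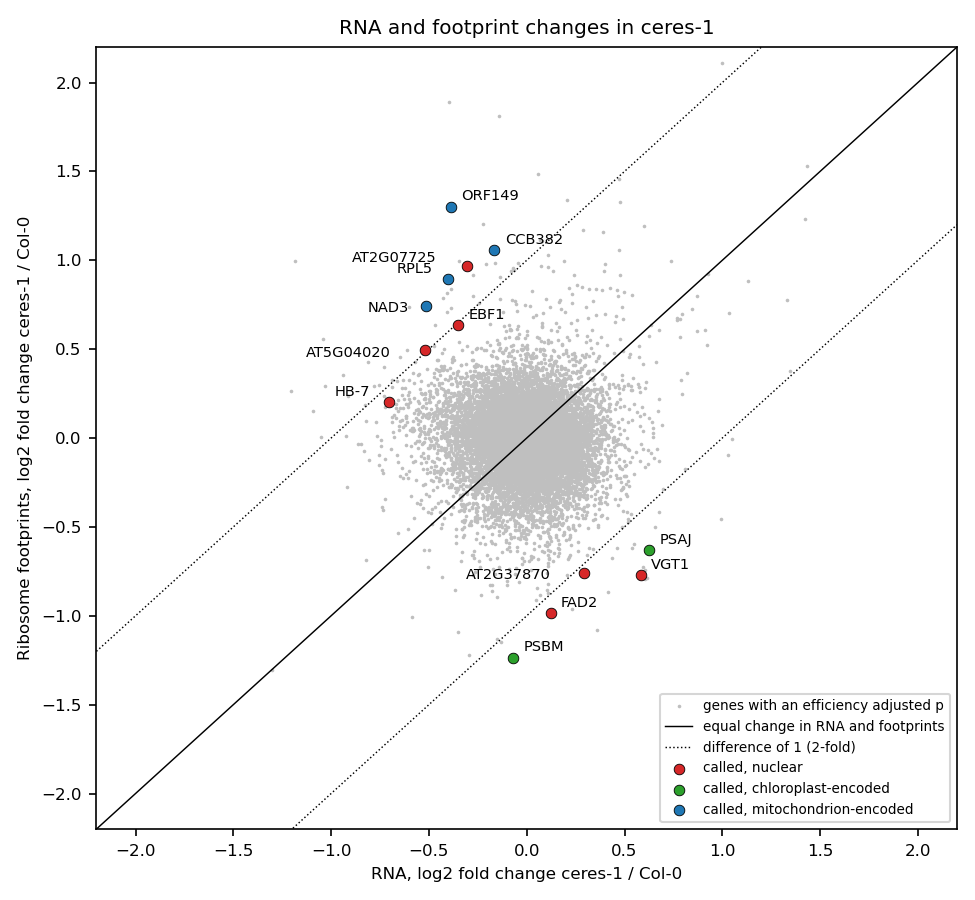
Each point is a gene with an efficiency adjusted p, placed by its RNA (horizontal axis) and footprint (vertical axis) log2 fold change of ceres-1 over Col-0; 6 genes lie outside the axes at 2.2 either way. The cloud is round and centred on 0, and the 13 called genes, in red (nuclear), green (chloroplast) and blue (mitochondrion), lie beside or beyond the dotted lines of a difference of 1.

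The column headed as the efficiency fold change does not hold this difference. In ceres-1 it lay within 0.05 of the footprint fold change at 99.0% of genes tested (Pearson r = 0.992 across genes), and its r with the difference was 0.743. Its sign was opposite to that of the difference at 2812 genes, 23.2% of those tested. The adjusted p in the next column went with the size of the difference (Spearman rho = -0.956 across genes) more than with the size of the fold change column (rho = -0.411). Directions and sizes are therefore given as the difference. All 13 called genes have the same sign by either measure.

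The share of genes called in efficiency in either direction was 0.107% of those tested, 0.0413% lower and 0.0660% higher. None of the 13 was called in RNA by DESeq2 (unadjusted p-values are not given in the table). The share of all genes called in RNA was not counted here, so the lack of RNA calls does not set these genes apart. Of the 9 that have a footprint adjusted p, 6 were also called in footprints, against 0.642% of the 9967 genes that have one. Footprints enter the difference, so this count is a description. The smallest difference among the 13 was 0.90 in size. Of the 79 genes at or past 1, picked by that size, 11 were called. In ceres-2, 12 of the 13 have the same sign, and FAD2 and VGT1 were called there too. The ceres-1 and ceres-2 values share their Col-0 libraries, so the second is not an independent repeat of the first.

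VGT1 (AT3G03090) encodes a glucose transporter of the vacuole membrane. In the authors' deposited table its RNA was at 0.58 and its footprints at -0.77, a difference of -1.35 or a 2.56-fold lower ratio (efficiency adjusted p = 0.0174). Its difference in ceres-2 was -1.33. The RNA thus lay above Col-0 while the footprints lay below it. The RNA change was not called, and the footprints have no adjusted p. FAD2 (AT3G12120) encodes the desaturase of the endoplasmic reticulum that turns oleate into linoleate. Its RNA was near Col-0 at 0.12 and its footprints at -0.98 in the authors' deposited table, a difference of -1.11 (efficiency adjusted p = 0.0150), with -1.05 in ceres-2. Here nearly all of the difference came from footprints. AT2G37870, a gene of the lipid transfer protein family, was at 0.29 in RNA and -0.76 in footprints in the authors' deposited table, a difference of -1.05 with an efficiency adjusted p of 0.0492. In ceres-2 its difference was -0.34, nearer to 0.

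The chloroplast genes called lower encode very small photosystem subunits. PSAJ (ATCG00630) of photosystem I was at 0.63 in RNA and -0.63 in footprints in the authors' deposited table, a difference of -1.25 (efficiency adjusted p = 0.00574). PSBM (ATCG00220) of photosystem II was at -0.07 in RNA and -1.24 in footprints in the authors' deposited table, a difference of -1.17 (efficiency adjusted p = 0.00253). In PSAJ the RNA and footprint parts were of equal size and opposite sign, and in PSBM nearly the whole difference lay in footprints. The ceres-2 differences were -0.90 and -0.60.

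EBF1 (AT2G25490) encodes an F-box protein that marks the ethylene factor EIN3 for degradation, and its mRNA is itself known for translational control by ethylene. It was at -0.35 in RNA and 0.63 in footprints in the authors' deposited table, a difference of 0.98 or a 1.98-fold higher ratio (efficiency adjusted p = 0.0492). ATHB7 (AT2G46680), a homeodomain leucine zipper factor known from drought and abscisic acid responses, was at -0.70 in RNA and 0.20 in footprints in the authors' deposited table, a difference of 0.90 (efficiency adjusted p = 0.0492). Most of the ATHB7 difference was thus the lower RNA, which was not called (adjusted p = 0.249). AT5G04020, described as calmodulin binding, stood at -0.52 in RNA and 0.49 in footprints in the authors' deposited table, a difference of 1.01 (efficiency adjusted p = 0.0174). The ceres-2 differences of EBF1, ATHB7 and AT5G04020 were 0.82, 0.79 and 0.12, the last far from its ceres-1 value.

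The other 5 genes called higher are mitochondrial or copies of mitochondrial genes. ORF149 (ATMG00660) had the largest difference of any called gene, 1.69, from -0.39 in RNA and 1.30 in footprints in the authors' deposited table (efficiency adjusted p = 0.0174). It is also the single called gene whose sign turned in ceres-2, at -0.28. NAD3 (ATMG00990), a subunit of respiratory complex I, stood at -0.51 in RNA and 0.74 in footprints in the authors' deposited table, a difference of 1.26 (efficiency adjusted p = 0.0345). CCB382 (ATMG00830), of cytochrome c maturation, stood at -0.17 in RNA and 1.06 in footprints in the authors' deposited table, a difference of 1.22 (efficiency adjusted p = 0.0472). RPL5 (ATMG00210), a protein of the mitochondrial ribosome, stood at -0.40 in RNA and 0.89 in footprints in the authors' deposited table, a difference of 1.29 (efficiency adjusted p = 0.00655). The nuclear gene AT2G07725 stood at -0.31 in RNA and 0.97 in footprints in the authors' deposited table, a difference of 1.27 (efficiency adjusted p = 0.0150), nearly the values of RPL5. Every stretch of 28 bases of the AT2G07725 coding sequence also occurs in the mitochondrial genome (100% in the RefSeq assembly TAIR10.1), so its reads cannot be told apart from mitochondrial ones and its value is uncertain.

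**Figure D2:**
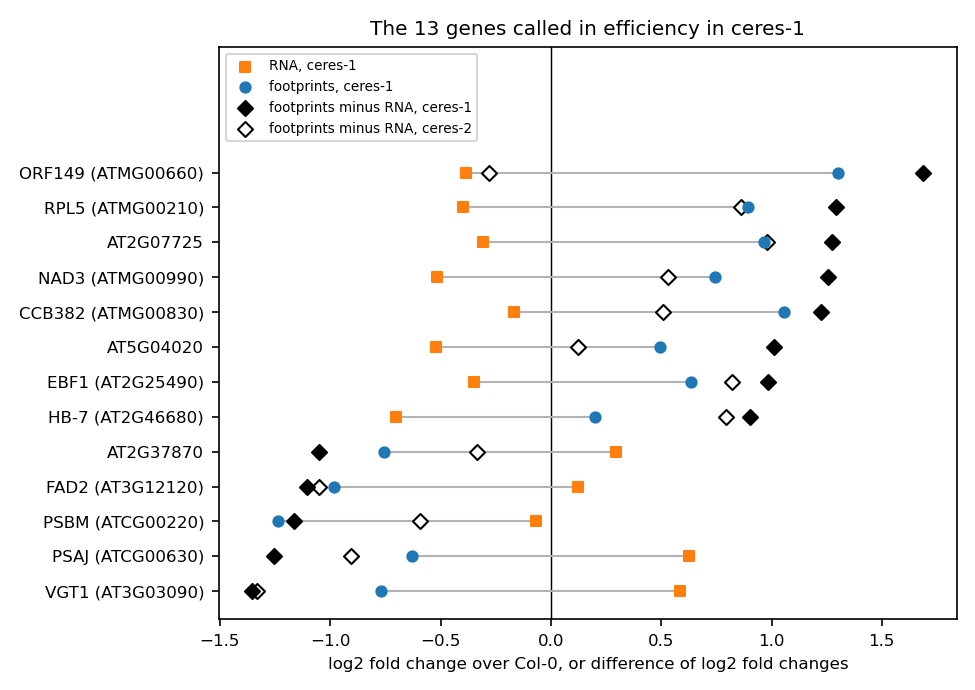
Rows are the 13 genes called in efficiency in ceres-1; squares and circles give the RNA and footprint log2 fold change of ceres-1 over Col-0, and filled and open diamonds the footprint minus RNA difference in ceres-1 and ceres-2. RNA and footprints lie on opposite sides of 0 at every gene except PSBM, and the open diamond crosses 0 only at ORF149.

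A further 27 genes had an efficiency adjusted p between 0.05 and 0.1, 12 of them lower and 15 higher, the smallest p being 0.0586. The genes named from this range were chosen after their values were seen. AT4G26710, a subunit of the vacuolar proton pump, had a difference of -1.45, from RNA at 0.99 and footprints at -0.46 in the authors' deposited table (efficiency adjusted p = 0.0586). ATMPC1 (AT5G20090), a mitochondrial pyruvate carrier, was at -0.97, the ribosomal protein gene RPS18C (AT4G09800) at -0.71 and ALB3 (AT2G28800), which inserts light-harvesting proteins into thylakoids, at -0.63. In RPS18C the RNA part was the larger, at 0.58 against -0.13 in footprints in the authors' deposited table, while ALB3 and ATMPC1 were called lower in footprints (adjusted p = 0.0300 and 0.0224). On the higher side, HSFC1 (AT3G24520), a heat shock factor, had a difference of 1.47 that came mostly from RNA at -1.21 in the authors' deposited table. PTAC5 (AT4G13670), a protein of the chloroplast transcription complex, was at 0.96 and Phox4 (AT4G32070), a protein with tetratricopeptide repeats, at 1.07.

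The genes with the largest differences were mostly not called. AT3G30320 had the highest, 4.89, from RNA at 1.79 and footprints at 6.68 in the authors' deposited table (footprint adjusted p = 0.0224, efficiency adjusted p = 0.835), and its ceres-2 difference was -1.55. AT5G21020 had the lowest, -2.69 (efficiency adjusted p = 0.650), with 0.63 in ceres-2. At both genes the other allele lay on the opposite side of 0. SHP1 (AT3G58780), a MADS-box factor of fruit development, was at 2.18 (efficiency adjusted p = 0.488) and EXT13 (AT5G35190), an extensin of the cell wall, at -1.40 (efficiency adjusted p = 0.244). Next to AT3G30320 and SHP1, the 10 highest held the mitochondrial open reading frames ORF149 (called), ORF107H (ATMG01330, 2.78), ORF101B (ATMG01210, 2.34) and ORF113 (ATMG01220, 2.17), with efficiency adjusted p-values of 0.267, 0.551 and 0.611 for the last 3. The other 4 were AT2G07599 (3.48) and AT2G07708 (1.95), whose coding sequences share 76.9% and 100% of their 28-base stretches with the mitochondrial genome, AT4G05631 (2.29) and AT2G41231, the lowest of the 10, none of them called (efficiency adjusted p = 0.0586, 0.734, 0.605 and 0.701). Beyond AT5G21020 and EXT13, the 10 lowest held the called VGT1 and PSAJ, AT4G26710 and DI21. The remaining 4 were AT1G10660 (-1.44), AT2G07719 (-1.35, with 1.55 in ceres-2), the photosystem II gene PSBI (ATCG00080, -1.32) and AT3G55050 (-1.28), with efficiency adjusted p-values of 0.0734, 0.935, 0.760 and 0.363. All 28-base stretches of AT2G07719 also occur in the mitochondrial genome, and its efficiency column has the opposite sign, 1.49 in the authors' deposited table. Of the 79 genes at or past 1, 25 were encoded in organelles, 16 in the mitochondrion and 9 in the chloroplast. Among all 12120 genes tested, 53 were encoded in the mitochondrion and 88 in the chloroplast. At or past 1, the footprint part was larger than the RNA part at 36 of the 54 upward and 20 of the 25 downward genes.

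RNA and footprint changes lay on opposite sides of 0, each by at least 0.4, at 46 genes, 21 with higher RNA and lower footprints and 25 the other way. Of these, 5 were called in efficiency, against 0.107% of all genes tested. The way these genes were picked makes their difference large, so this count is a description. Besides VGT1 and PSAJ, the first kind included DI21 (AT4G15910), known from drought, at 0.60 in RNA and -0.79 in footprints in the authors' deposited table (efficiency adjusted p = 0.282). The second included ICK1 (AT2G23430), an inhibitor of cyclin-dependent kinases, with -0.61 in RNA and 0.50 in footprints in the authors' deposited table (efficiency adjusted p = 0.210). ABCG42 (AT4G15233), a transporter gene, had values of -0.60 and 0.74 in the authors' deposited table, and was called in footprints (adjusted p = 5.96e-04) but not in efficiency (adjusted p = 0.612).

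Footprints were called at 64 of 9967 genes (0.642%), 29 lower and 35 higher. The median RNA change lay close to 0 in the lower genes and above it in the higher ones. Over the 29 lower genes the median RNA change was 0.07, the median footprint change -0.63 and the median difference -0.66, and the difference was below 0 at all 29. Over the 35 higher genes the medians were 0.31, 0.77 and 0.52, and the difference was above 0 at 29. Efficiency was called at 4 of the 29 and 2 of the 35. These genes were picked by their footprints, which enter the difference, so the counts are a description.

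Among gene classes, those encoded in the organelles had the lowest and the highest median, the chloroplast one hardly below that of the extensin class (both -0.29). The 88 chloroplast-encoded genes had a median difference of -0.29, 15 of them above 0, against a median of 1.11e-04 over all genes tested. Their median RNA change was 0.20 and their median footprint change -0.07. The 53 tested mitochondrion-encoded genes had a median of 0.62, 48 above 0, with medians of 0.15 in RNA and 0.77 in footprints. Over all 110 mitochondrial genes with both fold changes the median difference was 0.945. The chloroplast median thus came mainly from higher RNA, and the mitochondrial one mainly from higher footprints. In ceres-2 the medians were -0.19 and 0.38. Most mitochondrial genes with a footprint adjusted p in ceres-1 were not called in footprints. COX2 stood at 0.80 (adjusted p = 0.718) and NAD6 at 1.06 (adjusted p = 0.447) in the authors' deposited table, while NAD9, NAD3 and ORF107G were called. The called genes RPL5, ORF149 and CCB382 have no footprint adjusted p. Chloroplast genes called lower were 2 of 88 and mitochondrial genes called higher 4 of 53, against 0.0413% and 0.0660% of all genes tested. Transcripts of an organelle genome share that genome's abundance and, in part, precursor RNAs, so these genes are not independent observations. Some organelle genes also have several identifiers, such as NDHB.1 and NDHB.2, and each identifier was counted as a gene.

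Within the chloroplast, genes for the thylakoid complexes lay below 0. All 6 tested subunits of the cytochrome b6f complex, which passes electrons between the photosystems, were below 0 (median -0.67), as were all 6 photosystem I genes (median -0.54) and all 6 ATP synthase genes (median -0.28). Of the 15 photosystem II genes 13 were below 0 (median -0.27), and 11 of the 12 identifiers of the NDH complex (median -0.33), NDHB.1 and NDHB.2 among them. In each of these complexes the median RNA change, above 0, was larger in size than the median footprint change. The 26 chloroplast ribosomal protein genes, counted by identifier, had a median of -0.31 in ceres-1, 20 below 0, and of -0.00340 in ceres-2. Among them RPS7, RPL2 and RPL23 each appear under several identifiers. Over the 26 the median RNA change in ceres-1 was 0.03 and the median footprint change -0.28, so here the footprint part was the larger. The 4 genes of the chloroplast RNA polymerase had a median of 0.18, with 3 above 0.

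Very short chloroplast genes stood lowest. The 13 genes with a coding sequence under 150 bases (90 to 135 in the reference, where 85 of the 88 genes were found) had a median of -0.97, 12 of them below 0 and 9 at or below -0.58. The 72 longer genes had a median of -0.25. The limit was set after the values were seen, and the part of coding length in these values was not tested. PETD (ATCG00730, 483 bases) and NDHE (ATCG01070, 306 bases) show low values in longer genes, at -0.98 and -1.13. The RNA of PETD and NDHE lay at 0.81 and 1.03 and their footprints at -0.17 and -0.10, by the authors' deposited table. Neither was called (efficiency adjusted p = 0.680 and 0.642).

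Mitochondrial groups all had medians above 0. The 7 ribosomal protein genes (median 1.12) and the 5 genes of cytochrome c maturation (median 1.11) were all above 0. So were the 11 complex I identifiers (median 0.59) and the 5 genes of cytochrome c oxidase and cytochrome b (median 0.42). The complex I identifiers include NAD1A, NAD1B and NAD1C, which belong to the same gene, so distinct genes are fewer than 11. Of the 10 genes grouped as ATP synthase 8 were above 0 (median 0.60). Their footprint medians were close to each other, between 0.71 and 0.81, while RNA medians ran from -0.35 in the ribosomal proteins to 0.43 in the oxidase group. The spread between these groups was therefore mostly one of RNA. The 13 other open reading frames named ORF had a median of 0.41 in ceres-1 and -0.18 in ceres-2. Further genes named ORF, such as ORF25 and ORF291, were placed in the ATP synthase and oxidase groups by their names or descriptions.

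**Figure D3:**
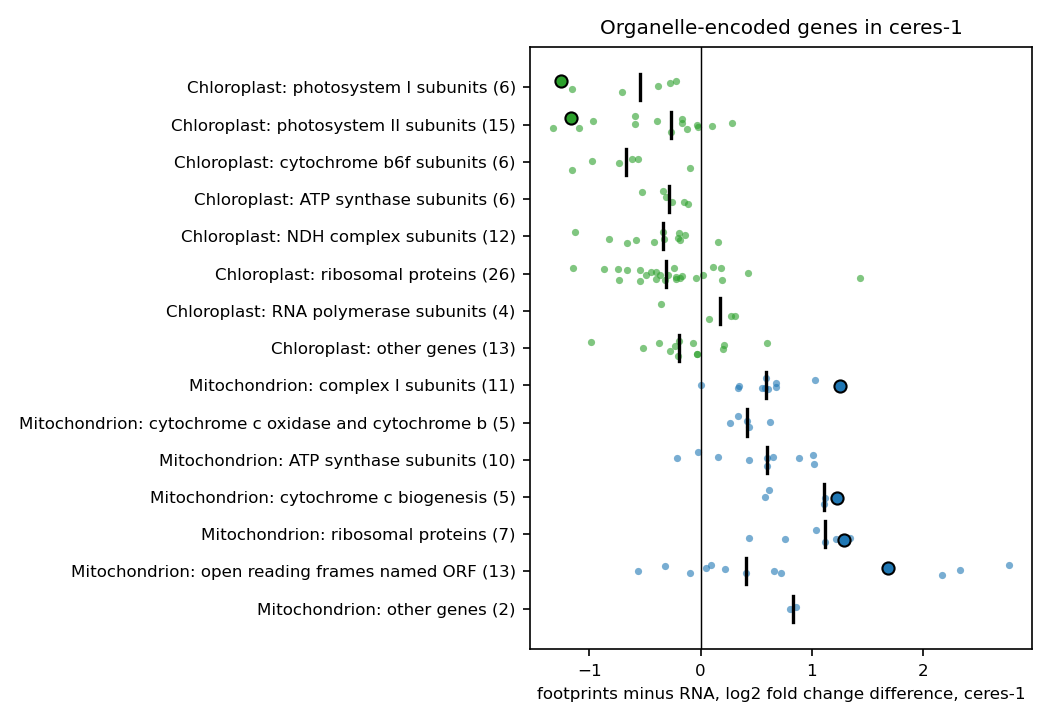
Each point is a chloroplast (green) or mitochondrial (blue) gene, placed by its footprint minus RNA difference in ceres-1 on the log2 scale; bars are group medians, outlined points are called genes, and the number of genes tested is in parentheses. Chloroplast groups other than RNA polymerase have medians below 0, and mitochondrial groups above 0.

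Of the nuclear genes tested, 30 share at least 50% of their 28-base coding stretches with an organelle genome, all with identifiers that begin with AT2G07. Each has most of its stretches in the mitochondrial genome. Their median difference was 0.61, with 26 above 0, close to the mitochondrial 0.62. Reads from the shared stretches cannot be assigned to the nuclear or the mitochondrial gene. Mitochondrial genes that hold these stretches carry the same doubt. In some of the 30 the sharing was not complete, as in AT2G07599 at 76.9%.

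The factors of the cap-binding complex showed no call. Of the 9 genes listed, CERES included, 8 were tested, and their differences ran from -0.29 to 0.28 with a median of 0.15 (0 of 8 called against 0.107% of all genes; unadjusted p-values are not given in the table). EIF4E (AT4G18040), the cap-binding protein, was at 0.25, its isoform EIF(ISO)4E (AT5G35620) at 0.16 and the scaffold EIF4G (AT3G60240) at 0.13. NCBP (AT5G18110), a further cap-binding protein, was the lowest at -0.29 (efficiency adjusted p = 0.676). The 48 genes described as translation initiation factors had a median of 0.05, and the 319 nuclear ribosomal protein genes one of -0.01.

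Genes related to the called ones were examined as lists written with the calls known, so their called members are no support for the list. Of 9 membrane lipid desaturase genes 8 were tested, with a median difference of -0.47 and 7 below 0. FAD8 (AT5G05580) and FAD7 (AT3G11170), the chloroplast omega-3 desaturases, were at -0.85 and -0.60, and SLD1 (AT3G61580), a sphingolipid desaturase, at -0.69 (efficiency adjusted p = 0.150, 0.203 and 0.151). Of the 8, FAD2 passed in efficiency, and SLD1 was called lower in footprints, at -0.71 in the authors' deposited table. The 9 tested genes whose description names a desaturase, FAD2 not among them, had a median nearer to 0, at -0.18, with 7 below 0 and 0 called against 0.107% of all genes tested. Among the 6 tested vacuolar sugar transporters, 5 were below 0, but apart from VGT1 the values lay between -0.41 (AT5G17010) and 0.01 (TMT2, AT4G35300).

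In ethylene signalling, 9 of 11 listed genes were tested and had a median of 0.15, with 6 above 0. In ceres-2 the median was -0.06, on the other side of 0, with 3 of the 9 above 0. Besides EBF1, its homologue EBF2 (AT5G25350) was at 0.61 in ceres-1 (efficiency adjusted p = 0.331). There the receptors ETR1 (AT1G66340) and ERS1 (AT2G40940) were at 0.20 and -0.22 and the transcription factor EIN3 (AT3G20770) at -0.09. Of 10 class I homeodomain leucine zipper genes 7 were tested, with a median of 0.46 and 6 above 0. HB-12 (AT3G61890), the closest relative of ATHB7, was at 0.76, from RNA at -0.50 and footprints at 0.27 in the authors' deposited table, and HB6 (AT2G22430) was at 0.64. Neither was called (efficiency adjusted p = 0.512 and 0.343). As in ATHB7, the RNA part was the larger in both.

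Several classes of nuclear genes for secreted, cell wall or membrane proteins had medians below 0. The 27 genes whose description names an extensin had a median of -0.29, 22 of them below 0. That wording also covers the pollen Ole e 1 allergen and extensin family, whose 10 tested genes had a median of -0.07. The 42 lipid transfer protein genes had a median of -0.24, with 36 below 0. The 18 genes of the vacuolar proton pump were at -0.27 (15 below 0), the 22 aquaporin genes at -0.21 (18 below), the 26 arabinogalactan protein genes at -0.20 (21 below) and the 18 expansin and xyloglucan endotransglucosylase genes at -0.18 (13 below). Over all genes tested, 6057 of 12120 lay below 0. The medians are smaller than 1.5-fold, and 1 gene of these classes, AT2G37870, was called in efficiency, against 0.0413% of all genes tested called lower. The ceres-2 medians were -0.19 for the extensin class, -0.10 for lipid transfer proteins, -0.25 for the proton pump and -0.07 for aquaporins. They were -0.13 for both the arabinogalactan proteins and the expansin class, and each of these medians was nearer to 0 than in ceres-1. Not all classes of this kind moved toward 0. The gibberellin-regulated GASA genes were at -0.21 in ceres-1 and -0.28 in ceres-2, and the major facilitator and sugar transporter genes at -0.14 and -0.21. Receptor-like kinase genes were at -0.03 and -0.11, and peroxidase genes at -0.12 and 0.02. The extensin and proton pump classes, and the disease resistance class below, were added after values were seen.

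Single members of these classes had larger values without passing the test. AGP2 (AT2G22470), an arabinogalactan protein, was at -0.97, EXPA5 (AT3G29030), an expansin that loosens the cell wall, at -0.86 and the aquaporin gene PIP2;5 (AT3G54820) at -0.76 (efficiency adjusted p = 0.179, 0.363 and 0.332). In the authors' deposited table, EXPA5 was at 0.10 in RNA and -0.76 in footprints, and was called lower in footprints (adjusted p = 0.0168). VHA-C3 (AT4G38920), of the vacuolar proton pump, stood at -0.56 in the authors' deposited table for footprints, a call with an adjusted p of 0.0445. In ceres-2 the differences of AGP2, EXPA5, PIP2;5 and VHA-C3 were -0.78, -0.43, -0.02 and -0.33, so that PIP2;5 lay near 0 there.

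The 76 nuclear light-harvesting and photosystem genes had a median of -0.10, with 50 below 0 and none called, against 0.107% of all genes tested. In ceres-2 the class median was nearer to 0, at -0.04, with 32 of the 76 above 0. LHCA4 (AT3G47470) and LHCB3 (AT5G54270), which bind chlorophyll in the antennae of the photosystems, were at -0.55 and -0.49 in ceres-1 (efficiency adjusted p = 0.170 and 0.366). The ceres-2 differences of LHCA4 and LHCB3 were larger, at -0.98 and -0.83, unlike the class median. CAB2 (AT1G29920) was at -0.49, but has near-identical copies whose reads it can share.

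The disease resistance, histone and pentatricopeptide repeat classes had medians above 0 in the difference and below 0 in RNA. The 44 disease resistance protein genes, intracellular immune receptors in large part, had a median difference of 0.25 with 40 above 0, from medians of -0.18 in RNA and 0.11 in footprints. In ceres-2 their median was -0.07, on the other side of 0. The 116 genes whose description names a histone had a median of 0.13 with 80 above 0, and of 0.16 in ceres-2. HTB2 (AT5G22880), a histone H2B gene, was at 0.82, from RNA at -0.54 and footprints at 0.27 in the authors' deposited table (efficiency adjusted p = 0.197). Histone genes have near-identical copies, so single members are uncertain. The 55 pentatricopeptide repeat genes, whose products bind organelle RNA, had a median of 0.15 in ceres-1 and -0.02 in ceres-2.

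**Figure D4:**
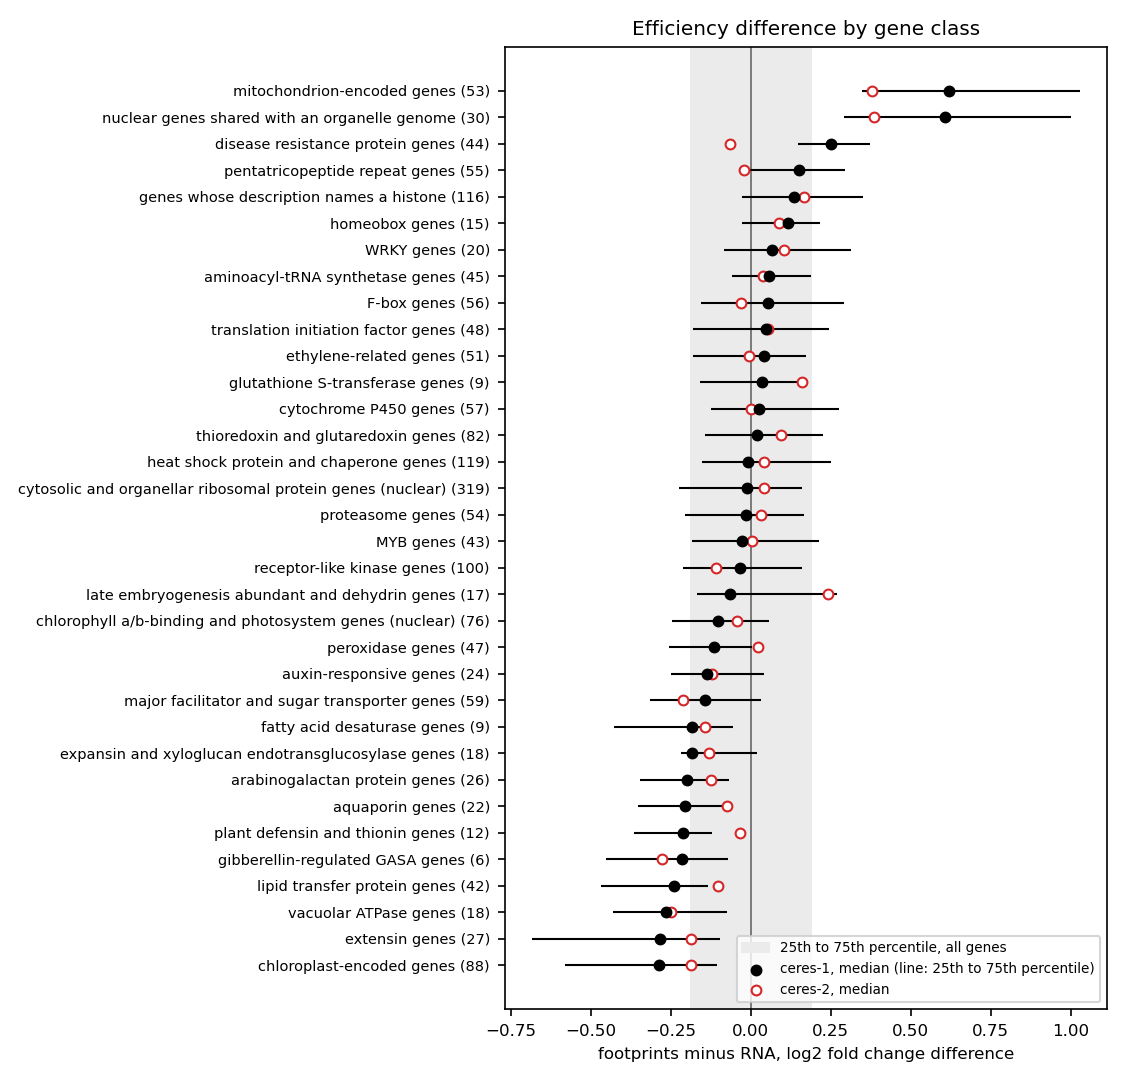
Filled points are the median footprint minus RNA difference in ceres-1 of each gene class (number of genes tested in parentheses), lines run from the 25th to the 75th percentile of the class, open points are medians in ceres-2, and the grey band spans the 25th to 75th percentile of all genes. The organelle classes lie at the ends of the scale, and the disease resistance genes have the widest gap between the alleles, 0.25 against -0.07.

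A grouping free of chosen words took the genes with an identical description as a family. This gave 74 families of at least 10 tested genes, holding 1653 genes, with 36 medians below 0 and 38 above, between -0.31 and 0.36. The lowest were the nucleotide-sugar transporters (-0.31), the UPF0497 membrane proteins (-0.28), the lipid transfer family (-0.28, 2 of 27 above 0), the aspartyl proteases (-0.26, 3 of 26 above 0) and the CCCH zinc finger proteins (-0.24). The highest were the CC-NBS-LRR immune receptors (0.36, 13 of 13 above 0), the histones (0.30, 18 of 20 above 0), the aldolase-type TIM barrel proteins (0.26) and the calcium-dependent lipid-binding proteins (0.24). Of the 1653 genes 1 was called, AT2G37870 of the lipid transfer family, against 0.107% of all genes tested. Without the filter on the efficiency adjusted p, the UPF0497 median was -0.11 and the CCCH median -0.03.

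RNA and footprints both took part in these extremes. In the 10 lowest families the median RNA change was above 0 in 10 and the median footprint change below 0 in 9, and in the 10 highest the median RNA change was below 0 in 10 and the median footprint change above 0 in 9. Families were ordered by the difference, so these counts follow in part from the order. In ceres-2, 9 of the lowest and 10 of the highest families kept the sign of their median, the CC-NBS-LRR family at 0.00542. The sign turned in the UPF0497 family, at 0.00619.

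**Figure D5:**
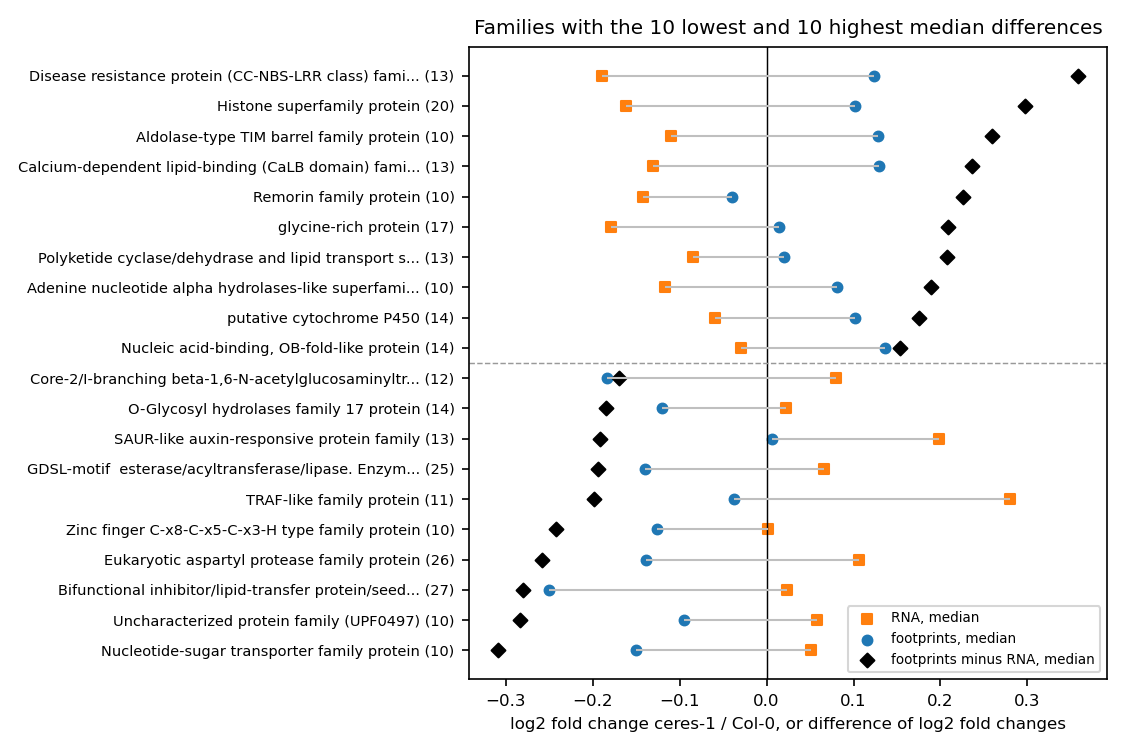
For the families with the 10 lowest and 10 highest median differences in ceres-1 (number of genes tested in parentheses), squares, circles and diamonds give the median RNA change, the median footprint change and the median difference over Col-0 on the log2 scale. RNA and footprint medians lie on opposite sides of 0 in most rows, and the diamonds run from -0.31 to 0.36.

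Coding length and base composition of nuclear genes went with small shifts. From the shortest to the longest of 5 equal bins of coding length the median difference went from -0.01 to 0.03 in ceres-1, and from 0.07 to -0.08 in ceres-2, the opposite order. From the lowest to the highest of 5 bins of coding GC content it went from 0.03 to -0.02 in ceres-1, and from -0.02 to 0.03 in ceres-2, again the opposite order. These shifts are well inside the quartiles of -0.19 and 0.19 over all genes tested, and their part in the class medians was not tested.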

How the data were processed

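Libraries of footprints and RNA were prepared from seedlings with the TruSeq Ribo Profile kit, per the labels' protocols. The submitters' processing notes name the aligner TopHat2 2.1.0, the read counter featureCounts 1.6.2 and the count test DESeq2. DESeq2 is named for the table as a whole, and which test gave the efficiency columns is not stated apart from that. Genome build, annotation and strand setting were not given in the sources used here. Both the log2 fold changes over Col-0 and the adjusted p-values were computed by the authors, per the file headers. A dash stands where no value is given.

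From the table, the RNA log2 fold change was subtracted from the footprint one per gene with Python 3.11.15, pandas 2.3.3 and numpy 2.4.6. The class medians and the count of called genes, but not the subtraction, were tested on simulated data with planted shifts and calls. Calls use the authors' adjusted p. No model was fitted, since values per library were not analysed here. Depth per library is unknown, so no interval is given.

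Classes were taken by words in the gene descriptions; those of 931 tested genes were not used here. Members, classes and lists were chosen with earlier results of these data known. Named genes were drawn from every called gene, the 10 largest differences per direction, up to 4 members per class and up to 6 per direction with opposite changes, plus exceptions said to be chosen after their values were seen. Symbols, coding length, GC content and the 28-base comparison with organelle genomes come from NCBI RefSeq TAIR10.1, in which 27420 of 27628 identifiers matched. Alternatives were other thresholds, no filter, the efficiency column, organelle genes left out and ceres-2.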

Additional observations from a re-analysis of the deposited data

How the results depend on the processing

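The 13 efficiency calls became 3 at an adjusted p below 0.01 and 40 below 0.1. They became 7 without organelle-encoded genes and 6 when nuclear genes sharing sequence with an organelle genome were left out too, an alternative chosen after seeing the data. Direction by the efficiency column left all 13 signs as they were. The median difference of 1.11e-04 was 0.00642 over every gene with both fold changes and -0.00517 in the efficiency column. Differences of at least 1 rose from 79 genes to 734 at 0.58 and 2747 without the filter on the efficiency adjusted p. Of 33 gene classes, 20 medians lay below 0, against 15 without the filter, 19 in the efficiency column and 18 in ceres-2, the last also chosen after seeing the data. The sign changed in 5, 5 and 10 classes. The largest median in ceres-1 among these classes was 0.14, 0.21 and 0.25 in size. No paired analysis was possible because single libraries have no values in the table, and for the same reason leaving out replicates was not run. Unknown depth limits every value.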
